A study of Drosophila melanogaster with 2 samples.

Results

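Binding of Xrp1 was described at 7 genes chosen by name: the GATA factor genes srp, GATAe, pnr, grn and GATAd, the GATA cofactor gene ush and the forkhead gene fkh. All 7 symbols were found among 18164 annotated genes on the 6 main chromosome arms. A peak was counted for a gene when its summit lay in the gene or within 2000 bp of it, and 24 of 7537 conservative peaks and 273 of 90973 ranked peaks met this rule.

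The peaks come from chromatin immunoprecipitation followed by sequencing (ChIP-seq) of whole Drosophila melanogaster embryos aged 8 to 24 hours. The transgenic flies of strain Xrp1-GFP carried an insertion that targets Xrp1 and gave an Xrp1-eGFP fusion protein, which was precipitated with an antibody to GFP after sonication to fragments of 200 to 800 bp. Xrp1, a transcription factor of the bZIP (basic leucine zipper) class that also has an AT-hook, is known for its part in stress responses and cell competition. The 2 biological replicates form 1 group, with 1 technical replicate apiece, so no contrast between conditions was possible and no test was run. Whole embryos hold every tissue, so a peak cannot be placed in the cells in which these genes act, and peaks of binding give no expression with which the label of the tissue could be checked.

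GATA factors are zinc-finger proteins that bind the sequence GATA. In the fly embryo srp acts at the top of the endoderm, fat body and blood cell programmes, GATAe continues the endoderm programme in the midgut, and pnr patterns the dorsal ectoderm and the heart. The ush gene encodes a Friend of GATA protein, which binds GATA factors such as Pnr and Srp and modifies what they do, and fkh encodes the fly FoxA factor, needed for the gut and the salivary glands.

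The windows of 10 summits, with 50 bases to either side, are shown because they hold the strongest peak of each gene in the lists used here (for pnr, the stronger of its 2 conservative peaks) and the 3 next strongest at ush. They are read 5' to 3' from the plus strand of dm6, as given by RefSeq, and capitals mark runs of at least 6 A or T bases.
srp summit 15984605 (chr3R:15984555-15984655): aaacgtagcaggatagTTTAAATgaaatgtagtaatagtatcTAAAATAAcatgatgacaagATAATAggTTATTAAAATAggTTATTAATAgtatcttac
GATAe summit 16007361 (chr3R:16007311-16007411): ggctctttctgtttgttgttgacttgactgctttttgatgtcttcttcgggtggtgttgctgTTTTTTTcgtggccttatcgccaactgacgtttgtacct
pnr summit 16034043 (chr3R:16033993-16034093): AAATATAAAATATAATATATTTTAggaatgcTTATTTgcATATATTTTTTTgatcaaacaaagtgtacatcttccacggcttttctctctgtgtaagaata
grn summit 8171671 (chr3R:8171621-8171721): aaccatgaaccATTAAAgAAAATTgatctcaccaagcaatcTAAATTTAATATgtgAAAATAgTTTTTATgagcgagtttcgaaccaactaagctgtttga
GATAd summit 10335088 (chr2L:10335038-10335138): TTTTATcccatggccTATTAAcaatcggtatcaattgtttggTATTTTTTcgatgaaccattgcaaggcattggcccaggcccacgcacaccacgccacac
ush summit 481098 (chr2L:481048-481148): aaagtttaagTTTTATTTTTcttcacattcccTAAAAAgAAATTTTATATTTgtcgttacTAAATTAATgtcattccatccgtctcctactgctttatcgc
ush summit 480067 (chr2L:480017-480117): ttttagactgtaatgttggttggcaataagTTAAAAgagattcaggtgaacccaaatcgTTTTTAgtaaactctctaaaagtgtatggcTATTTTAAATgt
ush summit 485872 (chr2L:485822-485922): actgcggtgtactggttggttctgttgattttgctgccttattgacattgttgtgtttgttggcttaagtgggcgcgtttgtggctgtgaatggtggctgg
ush summit 520832 (chr2L:520782-520882): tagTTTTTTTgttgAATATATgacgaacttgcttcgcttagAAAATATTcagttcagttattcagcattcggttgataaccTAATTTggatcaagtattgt
fkh summit 28585490 (chr3R:28585440-28585540): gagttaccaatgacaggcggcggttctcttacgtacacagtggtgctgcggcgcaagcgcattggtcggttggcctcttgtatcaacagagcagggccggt
The window under the srp peak held the GATA word AGATAA 10 bp from its summit, the ush window at 520832 held TGATAA 23 bp from its summit, and the GATAd window held the bZIP-type word TTGCAA 10 bp from its summit. The other 7 windows held none of the 9 bZIP-type or 4 GATA words searched. The fkh window and the ush window at 485872 held 0 bases in A/T runs, against 41 in the srp window, 42 in the pnr window and 38 at the strongest ush summit.

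Conservative peaks, which are those the authors list after requiring agreement between both replicates, were found at 6 of the 7 genes. The background was 38.5% of all annotated genes with at least 1 such summit by the same rule, 41.5% of protein-coding genes, and 66.6% of the 1977 protein-coding genes that span 10 kb or more (95% Wilson interval 64.5 to 68.7%). Among the 5 members that span 10 kb or more (srp, GATAe, pnr, grn and ush) 4 had a conservative summit, so that the count stands near the share of long genes. The exception was GATAe, with 0 conservative summits.

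The 24 summits were spread unevenly. The ush gene held 12, grn held 4, and srp, pnr, GATAd and fkh held 2 each. Per kb of gene and 2000 bp flanks, summed over the 7 genes, there were 0.133 conservative summits, or 0.108 without ush. The same figure was 0.0713 for all protein-coding genes and 0.0593 for those of 10 kb or more. The short genes had the highest single values, with 0.241 per kb at fkh and 0.212 per kb at GATAd, followed by ush at 0.176, and srp had the lowest value above 0, with 0.0912. The values of fkh and GATAd rest on 2 summits each. One of these lay 1962 bp outside fkh, and another lay 191 bp from the TSS of the gene SamDC beside GATAd. The figure for genes as short as these was not computed.

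**Figure D1:**
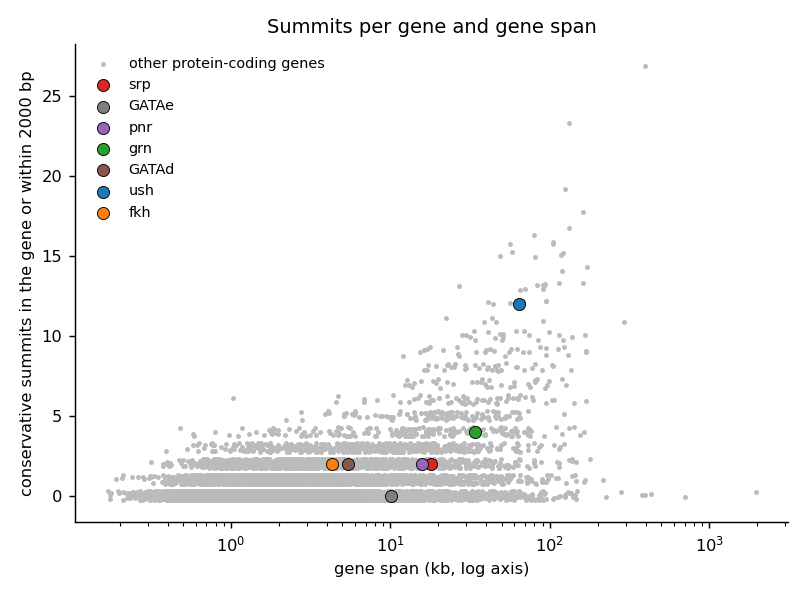
Number of conservative summits in a gene or within 2000 bp (vertical axis, grey points shifted slightly to separate them) against gene span in kb on a log axis, for all protein-coding genes (grey) and the 7 members (coloured). The ush gene lies highest of the members with 12 summits over 64.3 kb. Of the 198 protein-coding genes at least as long, ush included, 27 had at least as many. The other members lie within the cloud of genes of their length.

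Peak strength is the authors' signal per peak, which ranks peaks within a list. The median signal of the 24 member peaks was 128, against 123 for all conservative peaks, and 13 of the 24 lay above that median. Their median percentile in the conservative list was 52.8, so as a group they were of middling strength. That middle position combined strong ush peaks with weaker peaks elsewhere: without ush the median percentile of the 12 remaining peaks was 30.8.

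The srp gene (chr3R:15986152-16004085, plus strand) had a conservative peak on each side and none inside. The upstream peak (chr3R:15984525-15984668) lay 1547 bp before the first transcription start site (TSS) with a signal of 206, rank 1936 of the conservative list. Its signal was 161 in replicate 1 and 44.6 in replicate 2, and both replicates' own thresholded lists held it. The downstream peak (chr3R:16004047-16004410) had its summit 144 bp past the end of the gene, with a signal of 154 and replicate signals of 88.6 and 59.3, and was also in both own lists. Inside srp the strongest summit lay in a 5' UTR, 708 bp before an internal TSS and in an exon of lncRNA:CR44133, with a signal of 67.3. Its global IDR was 0.011. The irreproducible discovery rate (IDR) has low values for peaks that rank high in both replicates, and higher values for weak or inconsistent peaks. That value is just above the 0.01 below which the conservative list begins, and the second thresholded list of both replicates did hold the peak.

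GATAe (chr3R:16009105-16019133, plus strand), the midgut GATA gene that lies next to srp, had 22 ranked summits but none in the conservative list. The strongest (chr3R:16007179-16007542) lay 1744 bp upstream in an exon of lncRNA:CR42839, with a signal of 59.8 and a global IDR of 0.0228. Its replicate signals were 40 and 20.9, at ranks 8517 and 14090 of each replicate's own ranked list, and neither thresholded list of a single replicate held it. The second thresholded list did. The other 21 ranked summits passed no threshold, which here means a global IDR above 0.05, and their median signal was 13.9. With ranked peaks of a global IDR of at most 0.05, all 7 members had a summit, against 50.7% of protein-coding genes. Most members are long, and the share among genes of 10 kb or more was not computed at this threshold. For conservative summits that share was 66.6%, against 41.5% of all protein-coding genes, so the count cannot be read apart from length.

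The pnr gene (chr3R:16026079-16041796, plus strand) had 2 weak conservative peaks, with signals of 75.8 and 70.9, and its strongest peak was below the strongest of each of the other 5 bound genes. The weaker peak (chr3R:16025646-16026009) lay at the promoter, 251 bp before the first TSS, with replicate signals of 36.1 and 33.7. Neither replicate's own thresholded list held it. The stronger peak (chr3R:16033861-16034224) lay in the first intron, 543 bp before the internal TSS at 16034586, with replicate signals of 47.6 and 24.1, and was in the own list of replicate 1 alone. The first of the pair held the GA-repeat word GAGAGAG and the second held none of the words.

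The genes srp, GATAe and pnr are neighbours within 55.6 kb of arm 3R. That stretch, with 2000 bp added at either end, held 5 conservative summits, of which 4 were counted for a member. The remaining summit lay between srp and GATAe at 16006146 with a signal of 71.2, just outside the rule at 2061 bp from srp and 2959 bp from GATAe. A limit of 5000 bp would count it for both genes and give all 7 members a conservative summit. Just inside the limit lay the outer fkh peak at 1962 bp, with a signal of 80.3.

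The grn gene (chr3R:8147368-8181444, minus strand), a GATA gene named grain that acts in the morphogenesis of the posterior spiracles and in neurons, had 4 conservative peaks, all of them intronic. The strongest (chr3R:8171489-8171852, signal 131) lay in intron 2, 9773 bp downstream of the single TSS, with replicate signals of 105 and 33.9. Closest to the TSS was a peak in intron 1 (chr3R:8180401-8180764), 861 bp downstream, with a signal of 88.4 and replicate signals of 45.5 and 36.4. This window held the GATA word TGATAA. Further along, intron 5 held a pair of peaks at summits 8155987 and 8154193, with signals of 93.9 and 72.6. The replicate signals were 50.3 and 37.2 for the former and 41.4 and 28.4 for the latter. None of the 4 was in both own lists: 3 were in the list of replicate 1 and 1, the peak in intron 1, in that of replicate 2.

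GATAd (chr2L:10333734-10339185, plus strand), a further GATA gene, had a peak in its first intron and a peak past its end. The intronic peak (chr2L:10334906-10335269) had a signal of 157 and lay 1174 bp downstream of the nearest TSS. Its signal was 72.8 in replicate 1 and 90.6 in replicate 2, at ranks 4337 and 1475 of their own ranked lists, and it was in both own thresholded lists. The peak past the end (chr2L:10339084-10339447, signal 83.8) lay 81 bp beyond GATAd but 191 bp before the TSS of SamDC, which encodes a decarboxylase of polyamine synthesis. Replicate 1 gave it a signal of 67.8, and no peak of replicate 2's own ranked list overlapped it. The comparison of both replicates nonetheless gave it a global IDR of 0.00625. Why the own ranked list of replicate 2 lacked the peak was not tested. By position this second peak lies at the SamDC promoter, 5352 bp from the nearest GATAd TSS. It counts for GATAd only by the 2000 bp rule.

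The fkh gene (chr3R:28580976-28585264, minus strand) had both of its conservative peaks upstream and none in the gene. The stronger (chr3R:28585398-28585603) lay 226 bp before the TSS at 28585264 with a signal of 307, rank 1104 of the conservative list and above every conservative peak of the 5 GATA genes. Its replicate signals were 150 and 147, at ranks 1719 and 623 of the own ranked lists, and both own thresholded lists held it. The weaker (chr3R:28587044-28587407, signal 80.3) lay 1962 bp upstream, in an exon of lncRNA:CR43126, with replicate signals of 45.9 and 34.1, and was in the list of replicate 1 alone.

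**Figure D2:**
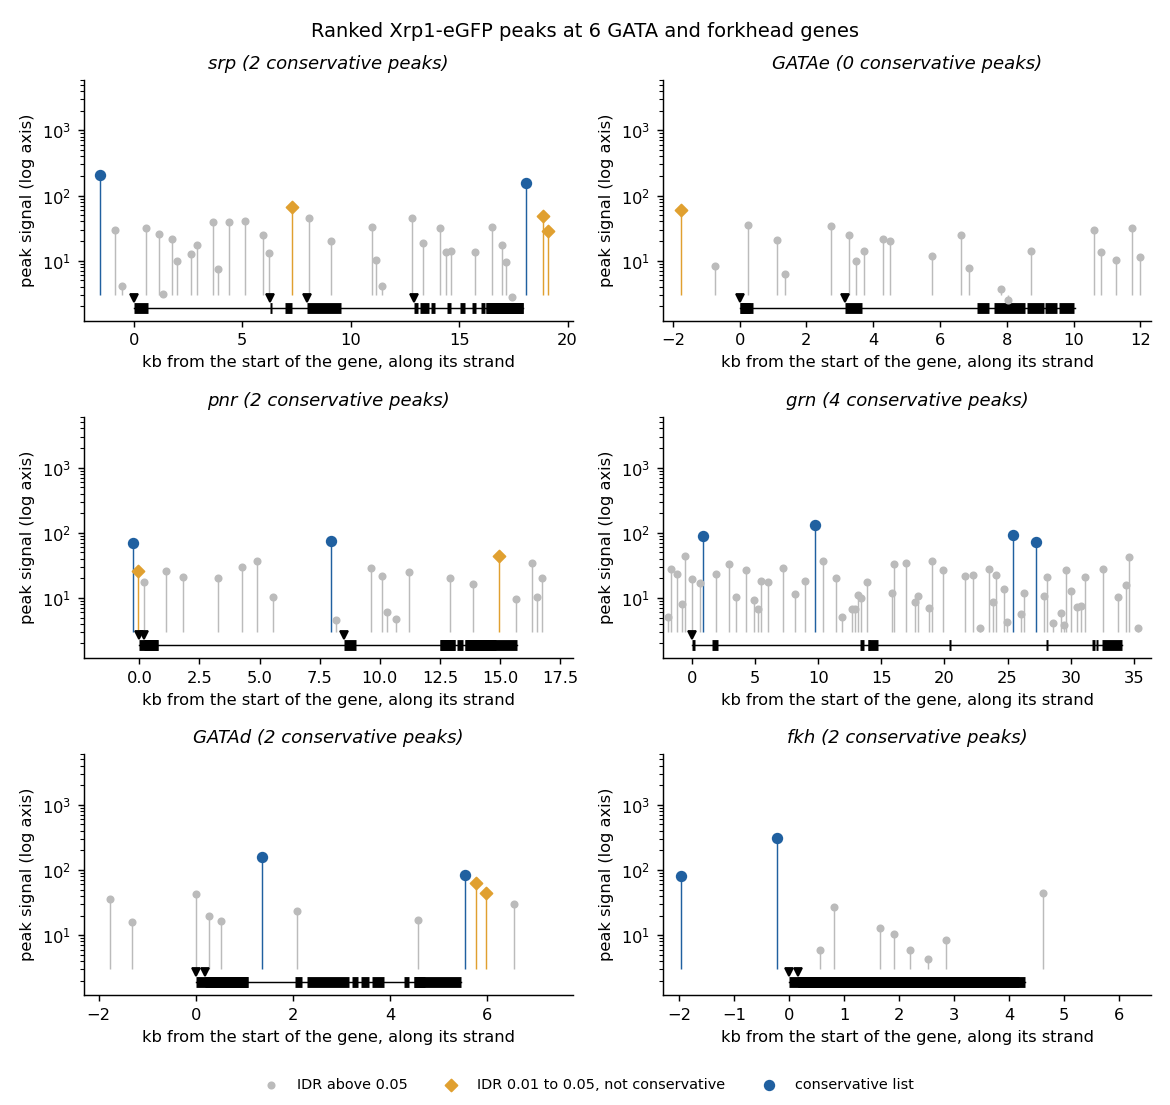
Signal of each ranked peak (log axis) against the position of its summit in kb from the start of the gene along its strand, for the members other than ush; black bars are exons of any transcript, triangles TSSs, blue points conservative peaks, orange points peaks with a global IDR between 0.01 and 0.05 and grey points the rest. The conservative peaks flank srp and stand upstream of fkh, all 4 at grn are intronic, and GATAe has only a peak of signal 59.8 above the grey background.

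The ush gene (chr2L:476220-540560, plus strand; 5 transcripts from 4 TSSs) carried the most and, among the members, the strongest binding. Its 12 conservative peaks had signals from 62.9 to 433 with a median of 175, and 26 of 13945 protein-coding genes had more. Long genes tend to hold more summits. Of the 198 protein-coding genes at least as long as ush, ush included, 27 had at least as many summits, and the median of the 198 was 3. All 12 lay in introns, although the summits at 490750 and 523586 also lay in the 5' UTR of another ush transcript. Both replicates' own lists held 9 of the 12.

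Of the 12, 7 lay within 12.9 kb of the gene's interior, from 510654 to 523586, the last between the internal TSSs at 523466 and 523736. Their signals ran from 126 to 429 with a median of 280. The strongest 3 were at 520832 (chr2L:520714-520952, signal 429, replicate signals 296 and 127), 522149 (signal 408, replicate signals 256 and 157) and 516222 (signal 406, replicate signals 269 and 133). The last summit of the series lay 120 bp past the TSS at 523466, with a signal of 126 and replicate signals of 61.8 and 56.7. This stretch was chosen after its values were seen. Outside it, the summit at 485872 in the first intron (chr2L:485740-485991) was the strongest conservative member peak, with a signal of 433, rank 589 and replicate signals of 195 and 240. A peak 85 bp upstream of the TSS at 490835, which ush shares with lncRNA:CR46258, had a signal of 122 and replicate signals of 63.5 and 57.9.

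The remaining ush peaks were weaker or fell inside the same interior stretch. In the stretch, the summit at 510654 had a signal of 280 and replicate signals of 141 and 147, at ranks 1887 and 624. The summit at 512226 had a signal of 159 and replicate signals of 103 and 54.9, and that at 522970 a signal of 190 and replicate signals of 126 and 71.2, at closer ranks of 2173 and 2096. The TSS nearest to the summits at 510654 and 512226 was that of lncRNA:CR46259, which lies within ush, 8418 and 9990 bp away. The nearest ush TSS lay 12812 and 11240 bp from them. Outside the stretch, the summits at 530407 (signal 106), 484386 (70.1) and 493471 (62.9) were among the weakest conservative peaks of the gene. None of these 3 was in the own list of replicate 2. A further 7 ranked summits at ush had a global IDR between 0.01 and 0.05, with signals from 38.7 to 93.6, and were not in the conservative list.

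The first intron of ush also held the strongest peak of the whole ranked list, which the conservative list did not hold. This peak (chr2L:480896-481296, summit 481098) had a signal of 3083 and rank 1 of 90973, above the strongest conservative peak at 3073. It ranked 1 in each replicate's own ranked list too, with signals of 1938 and 1161, and its global IDR was 1e-05, the lowest value the list gives. The peaks on either side of it, at 480067 (signal 740, rank 205, replicate signals 507 and 236) and 481990 (signal 259, rank 1444, replicate signals 191 and 65.8), were likewise ranked with an IDR of at most 0.01. None of the 4 thresholded lists (the conservative list, the second list and the own list of each replicate) held any of the 3.

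These 3 peaks lay in a stretch of 13.1 kb, between summits at 471329 and 484386, in which no thresholded list had a summit although the ranked list had 12, of which 4 had an IDR of at most 0.01. The remaining peak of the 4, at 472449 with a signal of 486, lay outside ush and 249 bp before the TSS of CG4297. In the whole list 150 of 7687 ranked peaks with an IDR of at most 0.01 were absent from the conservative list. Per the deposited notes, the thresholded lists were derived from 1 further file beside the ranked lists, and whether that file accounts for the absence was not tested. Counted with these peaks, ush had 15 summits and the 7 members 27. Their median signal percentile was 61.9 among the 7687 ranked peaks with an IDR of at most 0.01. The 52.8 given earlier is a percentile in the conservative list.

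The strongest peak belongs to ush only by the rule of position. The gene cbt (cabut), which encodes a zinc-finger transcription factor, lies within ush on the opposite strand (chr2L:476446-479688), and its TSS is nearest: the 3 peaks lay 379, 1410 and 2302 bp upstream of it, against 3847, 4878 and 5770 bp from the first TSS of ush. The lists alone do not tell which gene such a site serves.

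**Figure D3:**
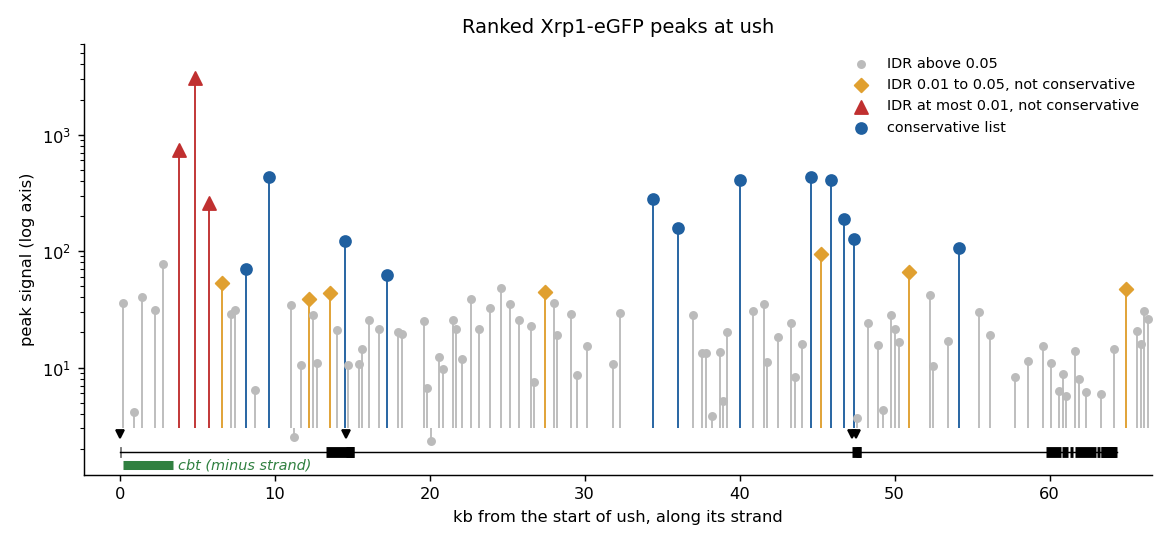
Signal of each ranked peak (log axis) at ush against the position of its summit in kb from the start of the gene; black bars are ush exons, triangles its TSSs, the green bar cbt, blue points conservative peaks and red triangles the absent peaks with an IDR of 0.01 or less. The red peak of signal 3083 stands 4878 bp from the start of ush, and 7 blue peaks lie in the 12.9 kb that end at the internal TSSs.

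Most ranked summits at the members were weak, as they were in the whole list. At a global IDR of at most 0.01, 27 of the 273 ranked member summits passed, against 7687 of all 90973 ranked peaks. Of the 273, 231 passed no threshold. By gene their median signals ran from 9.36 at fkh to 21.3 at GATAd, beside 17.1 for all such peaks on the 6 arms. The highest signal among them was 78.2, at ush. Ranked summits of any IDR were nearly even in density, from 1.17 per kb at pnr to 1.65 per kb at grn, unlike the conservative ones, which ran from 0 at GATAe to 0.241 per kb at fkh.

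Replicates were compared by overlap and by signal. Of the 24 conservative member peaks 13 overlapped a peak of both own thresholded lists, against 51.3% of all conservative peaks. The list of replicate 1 held 21 (81.7% of all) and that of replicate 2 held 14 (54.9% of all). The 2 in neither list were the pnr promoter peak and the ush peak at 493471. With ush included, the member shares stand near those of all peaks. Without ush, 4 of the 12 remaining peaks were in both own lists, beside the 51.3% of all conservative peaks. Replicate 2's own list is the shorter, with 4402 peaks against 7520.

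For 23 of the 24 a signal was found in both replicates' ranked lists. Across these 23 peaks Spearman's rho of the signals was 0.82 and Pearson's r of the log2 signals 0.84. The points share their libraries and are not independent, so these values describe how alike the replicates order the peaks. The conservative list already requires agreement between the replicates, so high values are partly set by that choice. They are no test of how well the replicates agree. How the signal of each replicate's list relates to depth is not stated, so equal signals do not mean equal binding: over the 7479 conservative peaks with a signal in both lists the ratio of replicate 1 to replicate 2 had a median of 1.75 (quartiles 1.34 and 2.14). For the 23 member peaks the ratio had a median of 1.46 and ran from 0.804, at the first intron of GATAd, to 3.61, at the upstream srp peak.

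**Figure D4:**
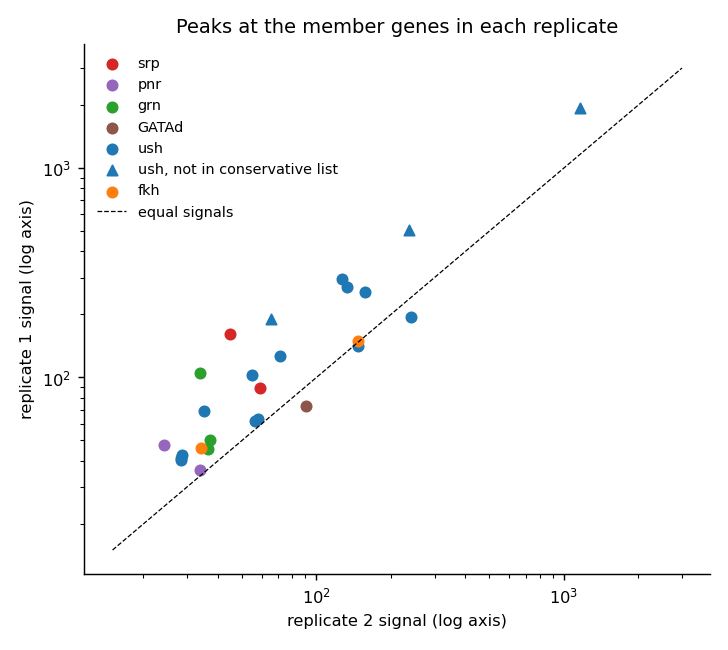
Signal in replicate 1 against replicate 2 (log axes) for the 23 conservative member peaks found in both ranked lists (circles, coloured by gene) and the 3 ush peaks that the conservative list lacks (triangles); the dashed line marks equal signals, which are not equal binding because the scale of each list is its own. Most points lie above the line, the median ratio being 1.46 (1.75 over all conservative peaks), and the ush peak with 1938 and 1161 lies far beyond all others.

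Of the 24 member summits 18 lay in an intron of the member, 4 upstream, 2 downstream and 0 in its coding sequence. The ush gene supplied 12 of the 18: without it 6 of 12 were intronic, 4 upstream and 2 downstream. Of all conservative summits 52% lay in an intron of a protein-coding gene (95% Wilson interval 50.9 to 53.1%). Within 500 bp of any TSS lay 6, against 39.5% of all conservative summits (95% Wilson interval 38.4 to 40.6%). They were the promoter peaks of pnr and fkh, 3 ush peaks and the GATAd peak next to SamDC. In width 15 of the 24 had the value of 364 bp that 71.5% of all conservative peaks share. The other 9, at srp, ush and fkh, were narrower, from 125 to 252 bp, with signals from 159 to 433.

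Sequence words were searched on both strands in the same windows of 50 bases to either side of a summit. The bZIP-type words, with their share of all conservative windows, were TTGCGCAA (0.159%), TTGCAA (5.07%), TGATGCAA (0.265%), TGATGAAA (0.518%), TGACGTCA (0.0929%), TGACGTAA (0.159%), TGACGCAA (0.106%), TTACGTAA (0.119%) and ATTGCAT (2.84%), of which TTGCAA makes up most matches. The GATA words were AGATAA (8.48%), TGATAA (9.62%), AGATAG (3.56%) and TGATAG (3.15%). A bZIP-type word was found in 1 of 24 member windows, the GATAd intron, against 8.91% of all conservative windows and 8.09% of the windows 500 bp to either side of them. A GATA word was found in 8 of 24, against 22.6% of all windows and 16.3% of the windows to either side of all summits. To either side of the member summits it was in 17 of 48 windows (35.4%), so that at the members the words were no denser under the summits than 500 bp away. By gene they were in 6 of 12 ush windows, 1 of the srp windows and 1 of the grn windows.

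Of 6 further words, GAGAGAG was in 3 of 24 windows (1.43% of all), at the pnr promoter and at the ush summits 490750 and 510654, and in 3 of the 48 windows to either side. CAGGTA was in 1 window, ush at 516222 (1.73% of all). CACGTG (0.69% of all), TATCGATA (1.21% of all) and TGAGTCA (0.81% of all, counted with its reverse complement, the sixth word) were in 0 of the 24. A match describes the letters in the window and is no measure of binding by any factor.

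The median GC content of the member windows was 35.6%, from 17.8% at ush 493471 to 58.4% at the fkh promoter, against 31.7% for all conservative windows, whose quartiles of 26.7 and 39.6% enclose the member median. The windows to either side had medians of 38.6% for members and 42.6% for all peaks. Bases in A/T runs of at least 6 had a median of 20.5 per member window, 26.0 per window of all summits and 12 per window to either side of all summits. The 4 most GC-rich summits all lay within 251 bp of a TSS: fkh at 58.4%, pnr at 57.4%, and ush at 55.4% and 54.5% for the summits at 523586 and 490750. The GATAd peak 191 bp from the SamDC TSS, in contrast, had 25.7%.

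**Figure D5:**
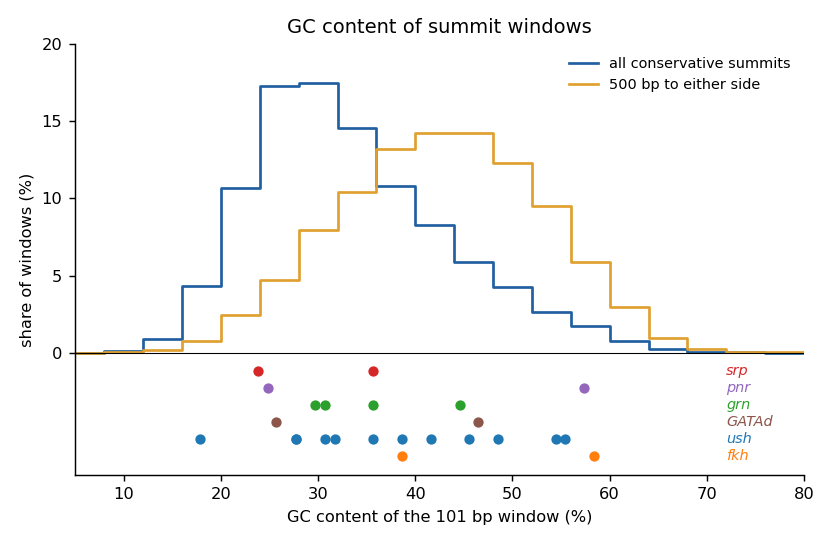
Share of windows (%, 50 bases to either side of the centre) by GC content (%) for all conservative summits (blue line) and for the windows 500 bp to either side (orange line), with the 24 member windows as points below, 1 row per gene. The blue line peaks left of the orange one (medians of 31.7% and 42.6%), and the member points run from 17.8% to 58.4%.

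Other genes of the programmes in which these factors act were described from 3 lists. Of 14 matched endoderm and gut genes 9 had a conservative summit (64.3%), of 15 hemocyte genes 7 (46.7%) and of 14 heart and dorsal tissue genes 7 (50%), beside 41.5% of protein-coding genes. The listed genes were longer than most, with median spans of 8.7, 4.77 and 6.27 kb against 2.17 kb for all protein-coding genes, and the share among genes of 10 kb or more was 66.6%, so the shares of the lists cannot be read apart from length. The gene inx7 was not matched. In the first list the strongest peaks were at bowl (signal 956, 215 bp before its TSS), a zinc-finger gene needed in the hindgut, otp (531), a homeobox gene of the hindgut, bin (245), the FoxF gene of the visceral mesoderm, and cad (225), the caudal homeobox gene. The otp and cad summits lay nearer to the TSSs of Cib2 and Pomp than to their own.

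Among hemocyte genes the strongest peaks were at zfh1 (672, 1478 bp before a TSS), a zinc-finger and homeobox gene, PPO3 (296), a prophenoloxidase gene, kn (217), the EBF factor gene, and lz (158), the RUNX factor gene of crystal cells. Among heart and dorsal genes they were at tin (1006, 209 bp before its TSS), the NK homeobox gene of the heart, tup (449), a LIM homeobox gene, and the T-box genes Doc2 (423) and Doc1 (322). The PPO3, tup, Doc2 and Doc1 summits lay nearest to the TSSs of CG9890, CG10602, CG5194 and Argk2. The strongest peaks of bowl, zfh1, tin and tup exceeded every conservative peak of the 7 members, as did that of otp.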

How the data were processed

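Sequencing depth is unknown, because only peak lists were used. Signal, as deposited by the authors, is a value per peak, and how it relates to depth is not stated. The deposited −log10 of the global IDR was converted to the IDR and is capped at 5. The assembly is dm6 per the labels; no aligner or peak caller is given in the sources used. The labels name possible controls, which are not analysed here.

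Summits were assigned with the Ensembl release 115 annotation and sequence read from RefSeq's dm6. The conservative list was the main one. Replicate signals came from the peak with the nearest summit in each replicate's own ranked list that overlapped by at least 1 bp, so that neighbouring peaks may share a value. The 8 columns per input inside the ranked list of the replicate comparison have no header and were not used. Shares have 95% Wilson intervals, which cover counting error only. Members, lists and words were chosen with earlier results of these data known.

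Named were all 7 members, their conservative peaks, the strongest ranked peak of a member without one and the 4 strongest of each list. Also named were some, but not all, of the genes nearest to or holding a named peak. The other peaks named at srp and ush, with CG4297, were picked once their values were known. Alternatives changed the distance, list, IDR threshold, replicate, overlap, TSS distance and window. The counting and word search were tested on simulated data. Python 3.11.15, NumPy 2.4.6, pandas 2.3.3, SciPy 1.17.1 and matplotlib 3.10.9 were used.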

Additional observations from a re-analysis of the deposited data

How the results depend on the processing

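Over 63 alternatives, 48 values stayed within 1.5 times the reported count or within 1 SD of the reported value and 15 moved further. The SD was 11.9 points for the signal percentile, from the single-replicate values, and 11.5 points for GC content, from the spread between windows. Both are wide for a shift of a median, and the former comes from alternatives that it also scores. The tally is therefore no measure of robustness for these medians. The number of summits at the members was 24, but 42 at a global IDR up to 0.05 and 273 with ranked peaks at any IDR, where 14310 genes in all had a summit. With each replicate's own list alone it was 15 to 23, and without ush, an alternative chosen after seeing the data as were the IDR of 0.01 regardless of listing and the GC windows, it was 12. The number of members bound stayed between 5 and 7. The median signal percentile was 68.6 for the strongest peak of each gene and 30.8 without ush; by a single replicate's signal it was 43.1 to 59.9. Of the 12 summits without ush, 3 lay within 500 bp of a TSS, 4 were in both own lists and 2 had a GATA word. A GATA word was in 5 windows with 25 bases to either side of the summit and 13 with 100. A bZIP-type word was in 4 of the windows with 100, and in 3 and 2 of the windows 500 bp to the left and right. The cause of these shifts was not tested beyond what each alternative does by construction.

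No paired analysis was possible because the samples form 1 group. With 2 replicates the spread between embryo collections is poorly known, and with depth unknown, absence from a list does not show absence of binding. Some ranked peaks with a low IDR, among them the strongest at ush, were absent from the thresholded lists.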
